A study of Homo sapiens with 6 samples.

Results

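NF-kB is a family of dimeric transcription factors that monocytes use to switch on inflammatory and survival genes. In the canonical branch, inhibitory IkB proteins hold the dimers in the cytoplasm until the IKK kinase complex marks the inhibitors for destruction, and in the non-canonical branch the precursor encoded by NFKB2 is processed and pairs with RELB. Several inhibitors are themselves switched on by NF-kB, which closes a negative feedback loop. The 10 genes described here are the 5 subunit genes, NFKB1, NFKB2, RELA, RELB and REL, and 5 genes grouped here as inhibitors, NFKBIA, NFKBIB, NFKBIE, NFKBIZ and TNFAIP3. NFKBIZ is in that group as a member of the IkB family, though its protein acts together with p50 on a subset of targets. The 10 genes were chosen by name, with earlier results of these data known, and all 10 were found among the 26485 genes of the count table.

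THP1 cells, a human acute monocytic leukemia line, were exposed for 6 h to withaferin A (WFA) or to its DMSO vehicle in 3 experiments, which gave 3 libraries per group. WFA is a steroidal lactone of Withania somnifera that has been widely described as an inhibitor of NF-kB signaling. The sample labels give its concentration as 1 mM, while the text on methods and the figure legends of this experiment give 1 μM. The values here are computed alike either way, but their reading as the effect of a dose depends on it. All libraries come from 1 cell line, so the replicates are cultures of the same leukemia and carry no information on other patients or on normal monocytes. RNA was measured in whole cultures, in which fewer cells expressing a gene and less RNA per cell cannot be told apart.

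Libraries held between 11006035 and 13872810 counted reads. Levels are given as CPM, read counts scaled to the size of each library with TMM factors. All 10 monocyte and myeloid markers listed were detected, with a summed level of 2546 to 3086 CPM with DMSO and 2331 to 3116 CPM with WFA. Most of that sum is LYZ, the lysozyme gene, at 1508 to 2037 CPM with DMSO and 1381 to 2090 CPM with WFA, which was not called. Among the other markers, the mean CPM of the surface receptor genes CD33 (74.4 to 41.3), CD14 (5.72 to 2.45) and CSF1R (237 to 180) fell with WFA, and CD68 rose (281 to 362). The myeloid transcription factor gene SPI1 went from 138 to 109 CPM with overlapping groups, and its call was lost under 6 of the 13 alternatives, among them without DMSO replicate 1 or 2 and without WFA replicate 1 or 3. The part of these marker shifts in the values below was not tested. Of 12 markers of other cell types, 7 never exceeded 3 counts in a library, and the summed level of the list, 362 to 411 CPM with DMSO and 328 to 344 CPM with WFA, came mostly from PECAM1, which monocytes also carry. COL1A1, a collagen gene of fibroblasts, rose from 0.453 ± 0.333 to 9.95 ± 2.27 CPM (SD, n = 3 each).

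Genes were compared by edgeR's quasi-likelihood test across all 12854 genes with sufficient counts, and a gene is called where its Benjamini-Hochberg adjusted p was under 0.05. The 10 NF-kB genes did not move as a unit. NFKB2 and NFKBIB rose about 2-fold, NFKB1 fell 1.74-fold, TNFAIP3 fell 2.13-fold, NFKBIA fell slightly, and RELA, RELB, REL, NFKBIE and NFKBIZ were not called. All 10 were tested, of which 2 were higher and 3 lower with WFA. Of all tested genes 50.5% were called, 25.8% higher and 24.7% lower with WFA, so 5 calls among 10 genes is close to the share among all genes and is no result about NF-kB genes as a group. The groups did not overlap in CPM for 5 of the 10, against 58.1% of all tested genes. The median log2 fold change of the 10 genes was -0.002, and that of all tested genes was 0.02.

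Sequence around the transcription starts shows what several members share. RefSeq promoter windows on GRCh38.p14, running from 250 bases before to 50 bases after a start, were found for 8 of the 10 genes, with 14 windows in all because NFKB1, NFKB2, RELA, NFKBIB and NFKBIZ have more than 1 start. RELB and NFKBIE had no entry. The windows were searched on both strands for the kB consensus, the 10-base sequence that NF-kB dimers bind. A match stood in 9 of the 14 windows, against 5.91% of the 35116 windows of all genes. It stood at 1 start or more of 7 of the 8 genes, all but RELA, a share per gene for which no background was counted. A match describes letters and is not evidence of binding in these cells. The stretches of 30 bases below hold the matches of the genes whose changes are described next, and of REL and the first start of NFKBIZ for comparison. Each is written 5′ to 3′ along the gene's own strand, with the matched bases in capitals.
NFKB1, start 1, chr4:102501300-102501329, + strand: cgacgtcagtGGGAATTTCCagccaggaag
NFKBIA, chr14:35404811-35404840, - strand: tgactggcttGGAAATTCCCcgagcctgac
TNFAIP3, chr6:137867188-137867217, + strand: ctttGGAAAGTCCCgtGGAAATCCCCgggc
NFKB2, start 2, chr10:102394462-102394491, + strand: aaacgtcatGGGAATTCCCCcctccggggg
NFKB2, start 2, chr10:102394490-102394519, + strand: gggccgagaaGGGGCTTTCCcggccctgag
NFKB2, start 3, chr10:102395519-102395548, + strand: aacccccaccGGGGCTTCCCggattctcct
NFKB2, start 3, chr10:102395674-102395703, + strand: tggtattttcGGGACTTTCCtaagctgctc
NFKBIB, start 2, chr19:38899932-38899961, + strand: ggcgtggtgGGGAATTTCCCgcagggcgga
REL, chr2:60881518-60881547, + strand: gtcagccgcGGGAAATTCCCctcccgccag
NFKBIZ, start 1, chr3:101827757-101827786, + strand: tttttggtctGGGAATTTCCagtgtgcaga

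The same 10 letters, GGGAATTTCC, were matched on one strand or the other in 5 genes. With WFA 2 of these were lower (NFKB1 and NFKBIA), 1 was higher (NFKBIB) and 2 were not called (REL and NFKBIZ). A further sequence, GGGACTTTCC, was shared by TNFAIP3, a gene that fell, and by the third start of NFKB2, a gene that rose. Counts are per gene, so the use of single starts was not measured. The matches of NFKB1, TNFAIP3, REL, NFKBIA and NFKBIB began at positions from -81 to -27 relative to the start, and those of NFKBIZ farther away, at -223 and -239. At the second start of NFKB2 and at the starts of REL and NFKBIB, overlapping matches on both strands make a stretch of 11 bases. The core of the heat shock element, GAANNTTC, to which the stress factor HSF1 binds, was found in 0 of the 14 windows and in 6.77% of all windows.

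**Figure D1:**
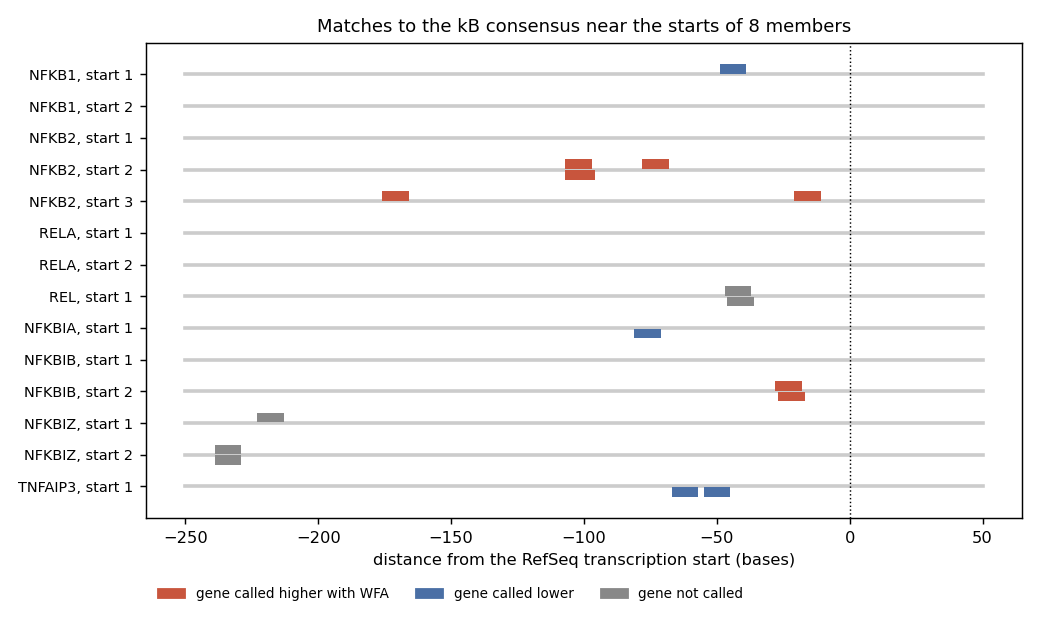
Positions of matches to the kB consensus in 14 RefSeq promoter windows of 8 members, from 250 bases before to 50 bases after the transcription start (dotted line). Bars above a line are matches on the gene's strand and bars below on the opposite strand, coloured by the gene's call with WFA, and matches near the start are seen in genes called higher, called lower and not called.

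Among the subunits, NFKB1 and NFKB2 changed in opposite directions. NFKB1 (chromosome 4, 102501329 to 102617302, + strand, GRCh38) encodes p105, the precursor of the p50 subunit of the canonical dimer. It had 79.3, 80.5 and 77.8 CPM in DMSO replicates 1, 2 and 3, and 44.3, 49.5 and 42.6 CPM in the WFA replicates. The DMSO libraries lay close together and far above each WFA library. Its mean fell from 79.2 ± 1.37 to 45.4 ± 3.56 CPM (SD, n = 3 each), which is -0.80 in log2 fold change (standard error, SE, 0.09, 95% interval -0.99 to -0.61, adjusted p = 3.88e-06 by edgeR), so WFA libraries held 0.574 of the DMSO level.

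NFKB2 (chromosome 10, 102394110 to 102402529, + strand) encodes p100, which is both an IkB-like inhibitor and the precursor of the p52 subunit of the non-canonical dimer. Its counts were modest, 119, 89 and 81 reads with DMSO and 202, 170 and 171 reads with WFA, or 8.37, 7.03 and 6.75 CPM against 16.5, 13.7 and 15.9 CPM. The lowest WFA library was well above the highest DMSO library. The mean rose from 7.38 ± 0.867 to 15.4 ± 1.48 CPM (SD, n = 3 each), which is 1.05 in log2 fold change (SE 0.15, 95% interval 0.73 to 1.37, adjusted p = 3.78e-05 by edgeR). Within a library, the NFKB2 level divided by the NFKB1 level was 0.106, 0.0873 and 0.0867 with DMSO and 0.373, 0.277 and 0.373 with WFA. This ratio restates the opposite changes of both genes and was not tested. The ratios of REL to RELA and of RELB to RELA had overlapping groups, at 0.904 ± 0.0216 and 0.140 ± 0.0307 with DMSO and 1.05 ± 0.179 and 0.160 ± 0.0278 with WFA (SD, n = 3 each).

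The 3 subunits that carry a transactivation domain showed no call. RELA (chromosome 11, 65653596 to 65663094, - strand), the partner of p50 in the most common dimer, had 51.6, 46.9 and 51.0 CPM with DMSO and 40.9, 49.5 and 46.2 CPM with WFA. The groups overlapped, and replicate 2 went up while replicates 1 and 3 went down. The log2 fold change was -0.13 (SE 0.10, 95% interval -0.34 to 0.08, adjusted p = 0.292 by edgeR).

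REL (chromosome 2, 60881521 to 60931610, + strand) encodes c-Rel, a subunit known from lymphoid and myeloid cells. Its values were 46.1, 43.6 and 45.4 CPM with DMSO and 51.3, 45.7 and 44.7 CPM with WFA, a log2 fold change of 0.07 (SE 0.10, 95% interval -0.13 to 0.27, adjusted p = 0.567 by edgeR).

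RELB (chromosome 19, 45001430 to 45038198, + strand), the partner of p52, was counted least among the subunits, with 65 to 107 reads per library. It had 7.53, 7.82 and 5.42 CPM with DMSO and 7.60, 6.44 and 7.54 CPM with WFA. DMSO replicate 3 was the lowest of the 6 libraries. The log2 fold change was 0.05 (SE 0.18, 95% interval -0.34 to 0.44, adjusted p = 0.841 by edgeR), and its sign was negative without DMSO replicate 3 (-0.10) and when libraries were scaled by their totals alone (-0.033), as was that of REL under that scaling (-0.016). At these counts a change within this interval was not detectable for RELB.

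**Figure D2:**
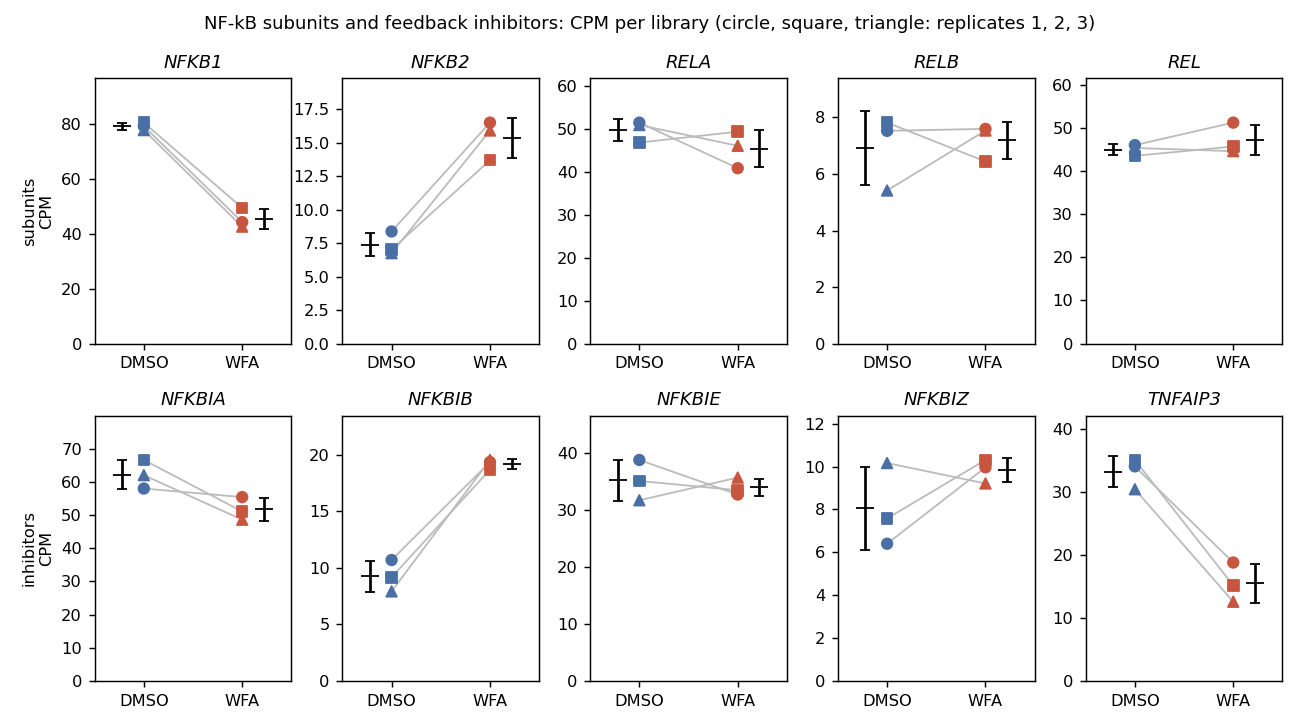
CPM of the 5 subunit genes (top) and the 5 inhibitor genes (bottom) in each DMSO and WFA library, with same-numbered replicates joined by grey lines and the mean ± SD of 3 libraries beside each group. Libraries of the groups do not overlap for NFKB1, NFKB2, NFKBIA, NFKBIB and TNFAIP3, and they do for the other 5 genes.

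The inhibitors also split. TNFAIP3 (chromosome 6, 137867188 to 137883312, + strand) encodes A20, a ubiquitin-editing enzyme that shuts off signaling upstream of IKK and is itself an NF-kB target. It had 34.05, 35.1 and 30.4 CPM in the DMSO replicates and 18.8, 15.1 and 12.6 CPM in the WFA replicates. All WFA libraries lay below all DMSO libraries, and the same-numbered pairs differed by -0.86, -1.21 and -1.28 on the log2 scale. The mean went from 33.2 ± 2.45 to 15.5 ± 3.13 CPM (SD, n = 3 each), which is -1.09 in log2 fold change (SE 0.14, 95% interval -1.39 to -0.80, adjusted p = 1.27e-05 by edgeR). DMSO libraries thus held 2.13 times the WFA level, and 88.7% of all tested genes had a smaller change in either direction.

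NFKBIB (chromosome 19, 38899700 to 38908893, + strand) encodes IkBβ, a cytoplasmic inhibitor that is not induced as strongly by NF-kB as IkBα. It went up in every pair, from 10.7, 9.16 and 7.92 CPM with DMSO to 19.4, 18.7 and 19.5 CPM with WFA. The WFA libraries were almost alike, and the DMSO libraries varied more. The mean rose from 9.26 ± 1.39 to 19.2 ± 0.451 CPM (SD, n = 3 each), which is 1.05 in log2 fold change (SE 0.14, 95% interval 0.75 to 1.35, adjusted p = 2.10e-05 by edgeR). Its exons share 40 bases, 1.88% of their length, with SIRT2 on the opposite strand in GENCODE 29, and SIRT2 itself had a log2 fold change of 0.41 (SE 0.11, adjusted p = 0.00759 by edgeR). The kit does not mark strand, so reads in those 40 bases cannot be told apart.

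NFKBIA (chromosome 14, 35401511 to 35404749, - strand) encodes IkBα, the prototype inhibitor and a rapid NF-kB feedback target. It had 58.0, 66.6 and 62.0 CPM with DMSO and 55.4, 51.1 and 48.6 CPM with WFA. The groups did not overlap, but the highest WFA library came within 3 CPM of the lowest DMSO library, and the pair of replicate 1 differed by only -0.07 on the log2 scale, against -0.38 and -0.35 in replicates 2 and 3. The log2 fold change was -0.27 (SE 0.09, 95% interval -0.47 to -0.06, adjusted p = 0.0285 by edgeR). This call did not hold without DMSO replicate 2 (-0.23, adjusted p = 0.109 by edgeR), DMSO replicate 3 (-0.27, adjusted p = 0.0547), WFA replicate 2 (-0.26, adjusted p = 0.0655) or WFA replicate 3 (-0.22, adjusted p = 0.0978).

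NFKBIE (chromosome 6, 44258166 to 44265788, - strand) encodes IkBε, a slower feedback inhibitor. Its values of 38.8, 35.1 and 31.7 CPM with DMSO and 32.8, 33.50 and 35.7 CPM with WFA overlapped, and its log2 fold change was -0.05 (SE 0.11, 95% interval -0.28 to 0.17, adjusted p = 0.698 by edgeR). Without DMSO replicate 1, the highest library, the value was 0.020.

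NFKBIZ (chromosome 3, 101827991 to 101861022, + strand) encodes IkBζ, a nuclear family member that acts together with p50 on a subset of targets. It had 6.40, 7.58 and 10.2 CPM with DMSO and 9.97, 10.3 and 9.21 CPM with WFA. The libraries of WFA were close to each other, and DMSO replicate 3 stood with them rather than with the other DMSO libraries. Its log2 fold change was 0.30 (SE 0.18, 95% interval -0.08 to 0.68, adjusted p = 0.182 by edgeR). Without DMSO replicate 3 it was 0.49 and the gene was called (adjusted p = 0.0354 by edgeR), and without DMSO replicate 1 it was 0.15 (adjusted p = 0.541 by edgeR).

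Ratios within a library, chosen with the values of each gene known and given with no test, set the inhibitors beside each other. NFKBIB counts were 0.184, 0.138 and 0.128 of those of NFKBIA with DMSO and 0.350, 0.366 and 0.402 with WFA. NFKBIZ counts were 0.246 ± 0.0776 of those of TNFAIP3 with DMSO and 0.648 ± 0.105 with WFA (SD, n = 3 each), a shift that comes mostly from the fall of TNFAIP3. The ratio of NFKBIA to RELA, an inhibitor and the subunit it holds, was 1.25 ± 0.151 with DMSO and 1.15 ± 0.180 with WFA (SD, n = 3 each), with overlapping libraries.

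**Figure D3:**
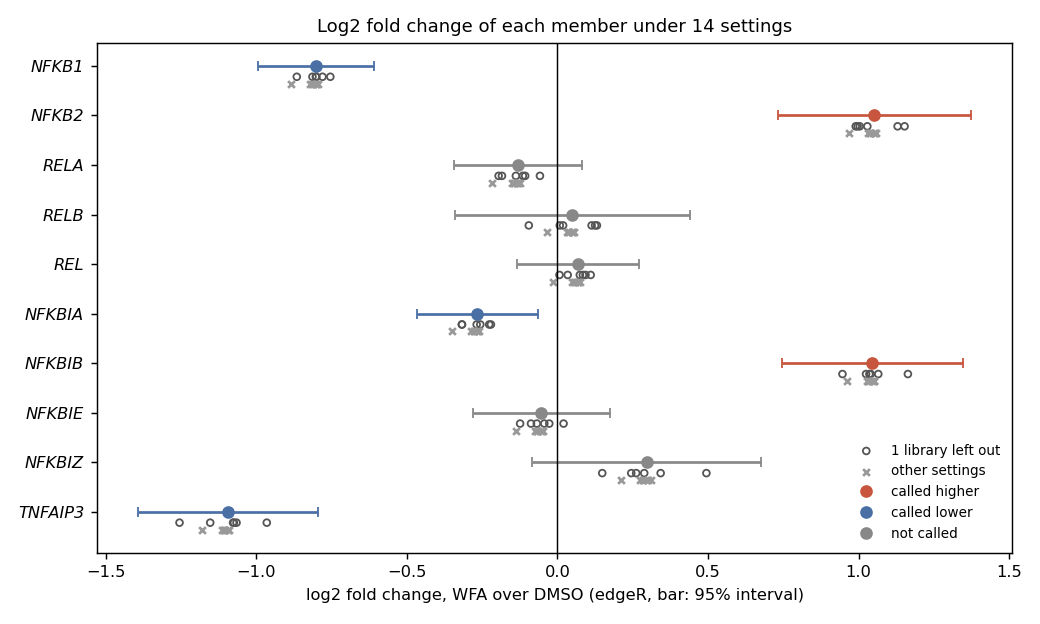
Log2 fold change (WFA over DMSO) of each member from edgeR, with its 95% interval and colour by call, above the values with 1 library left out (open circles) and with other settings (crosses). NFKB1 and TNFAIP3 stay below 0 and NFKB2 and NFKBIB above 0 under each of the 13 alternatives, with TNFAIP3 between -1.26 and -0.97.

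To set the genes beside each other, CPM was divided by the length in kb of their protein-coding exons in GENCODE 29, which has the same GRCh38 build as the submitters' hg38 but may not be the annotation used for counting. With DMSO, NFKBIA stood first at 32.7 ± 2.27 CPM per kb (SD, n = 3). RELA at 14.7 ± 0.749, NFKB1 at 14.3 ± 0.247 and NFKBIE at 13.7 ± 1.37 followed and did not differ beyond their spread. TNFAIP3 came next at 7.00 ± 0.516, then NFKBIB at 4.35 ± 0.653 and REL at 4.0004 ± 0.114, which overlapped, then RELB at 3.01 ± 0.570, NFKB2 at 2.004 ± 0.235 and NFKBIZ at 1.92 ± 0.459. NFKBIZ overlapped both NFKB2 and, in single libraries, RELB. The value for REL rests on a long transcript of 11.3 kb, of which 50.7% is also annotated as the noncoding RNA AC010733.2.

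With WFA the order changed in the middle. NFKBIA was still first at 27.2 ± 1.81 CPM per kb (SD, n = 3), and RELA at 13.4 ± 1.27 and NFKBIE at 13.2 ± 0.600 overlapped behind it. NFKBIB moved up to 9.01 ± 0.212, overlapping NFKB1, which had come down to 8.23 ± 0.646. REL at 4.20 ± 0.316, NFKB2 at 4.17 ± 0.402, TNFAIP3 at 3.27 ± 0.660 and RELB at 3.13 ± 0.282 each overlapped the next, and NFKBIZ was last at 2.35 ± 0.134. Of the summed level per kb of the 5 subunits, NFKB1 made up 37.7% with DMSO and 24.8% with WFA, NFKB2 5.26% and 12.6%, and RELA 38.6% and 40.5%. These are shares of RNA and say nothing of the proteins or of which dimers formed.

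Upstream of the subunits, ligands and receptors of the TNF superfamily start the pathway. Of the 12 genes on that list, 7 were tested, with 1 higher, 3 lower and a median log2 fold change of -0.24. That is 57.1% called, against 50.5% of all tested genes. The receptors of TNF moved apart. TNFRSF1B, the receptor TNFR2 of myeloid and lymphoid cells, had 70.6, 63.2 and 73.2 CPM with DMSO and 32.7, 30.8 and 34.2 CPM with WFA, a log2 fold change of -1.08 (SE 0.10, adjusted p = 3.82e-07 by edgeR). TNFRSF1A, the widely expressed receptor TNFR1, had 67.4, 68.9 and 63.2 CPM with DMSO and 95.7, 98.0 and 104 CPM with WFA, a log2 fold change of 0.58 (SE 0.08, adjusted p = 4.57e-05 by edgeR). The libraries of the groups were apart for both receptors.

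TNFSF13B, which encodes the B cell factor BAFF, went from 10.6 ± 1.53 to 4.41 ± 0.627 CPM (SD, n = 3 each, log2 fold change -1.26, SE 0.18, adjusted p = 4.09e-05 by edgeR). TNFSF11, which encodes RANKL, was low, at 3.31 ± 0.386 and 1.78 ± 0.439 CPM (SD, n = 3 each, log2 fold change -0.89, SE 0.26, adjusted p = 0.00965 by edgeR), and was not called without WFA replicate 1 (-0.70, adjusted p = 0.0510). TNF and LTB are listed at 0 in all 6 libraries and LTA had at most 1 count. These lie in a stretch of chromosome 6 where 84.1% of protein-coding genes had at most 3 counts in any library, so the table does not show whether TNF was expressed. NFKBIE and TNFAIP3 lie outside that stretch.

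The IKK kinases and the adaptors that connect them to receptors were all counted well enough to be tested, 20 of 20, with 7 higher, 2 lower and a median log2 fold change of 0.18. That is 45% called, against 50.5% of all tested genes. Scaled by library totals alone, 5 were higher and 5 lower. The adaptors TRAF2 and TRAF6, ubiquitin ligases that relay TNF and Toll-like receptor signals, were higher. TRAF2 had 19.5, 20.3 and 16.2 CPM with DMSO and 34.5, 39.8 and 49.4 CPM with WFA (log2 fold change 1.14, SE 0.14, adjusted p = 8.50e-06 by edgeR). TRAF6 rose from 43.6 ± 1.55 to 76.2 ± 4.60 CPM (SD, n = 3 each, log2 fold change 0.81, SE 0.09, adjusted p = 3.36e-06 by edgeR). Neither gene had overlapping groups.

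The subunits of IKK itself differed. CHUK, the kinase subunit IKKα, was not called (log2 fold change -0.21, SE 0.10, adjusted p = 0.102 by edgeR), though its groups did not overlap. IKBKG, the regulatory subunit NEMO, rose from 7.12 ± 0.488 to 15.4 ± 1.54 CPM (SD, n = 3 each, log2 fold change 1.11, SE 0.15, adjusted p = 1.72e-05 by edgeR), a value that is uncertain because the genome holds a near-identical partial copy of this gene. IKBKB, the kinase subunit IKKβ, went from 113 ± 11.2 to 92.4 ± 1.58 CPM (SD, n = 3 each, log2 fold change -0.29, SE 0.09, adjusted p = 0.0137 by edgeR), a call that was lost without DMSO replicate 2 (-0.24, adjusted p = 0.0708). IKBKE, an IKK-related kinase of the interferon response, fell from 20.0 ± 3.71 to 10.5 ± 2.23 CPM (SD, n = 3 each, log2 fold change -0.92, SE 0.17, adjusted p = 0.000389 by edgeR).

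Of 16 other negative regulators of the pathway, 14 were tested, with 6 higher, 1 lower and a median log2 fold change of 0.28. That is 50% called, against 50.5% of all tested genes, and the direction of the list was not tested. OTULIN, which removes linear ubiquitin chains, had 79.7, 68.5 and 76.3 CPM with DMSO and 179, 171 and 182 CPM with WFA. The lowest WFA library lay far above the highest DMSO library (log2 fold change 1.24, SE 0.09, adjusted p = 2.96e-08 by edgeR). CYLD, a deubiquitinase of the same adaptors, rose from 52.3 ± 3.07 to 82.6 ± 11.7 CPM (SD, n = 3 each, log2 fold change 0.66, SE 0.11, adjusted p = 0.000112 by edgeR).

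RNF11, a partner of A20, rose from 144 ± 5.29 to 235 ± 30.3 CPM (SD, n = 3 each, log2 fold change 0.71, SE 0.10, adjusted p = 2.97e-05 by edgeR). TANK, a TRAF-binding protein, rose from 61.8 ± 6.30 to 90.7 ± 7.38 CPM (SD, n = 3 each, log2 fold change 0.55, SE 0.10, adjusted p = 0.000276 by edgeR). The 1 lower gene, PDLIM2, which promotes turnover of nuclear RELA, had overlapping groups, 15.4 ± 3.13 and 11.3 ± 1.13 CPM (SD, n = 3 each, log2 fold change -0.45, SE 0.16, adjusted p = 0.0325 by edgeR), and was not called without DMSO replicate 1, DMSO replicate 2, WFA replicate 2 or WFA replicate 3 (edgeR adjusted p from 0.0522 to 0.151).

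Known NF-kB target genes went both ways. Of 29 listed, 18 were tested, with 8 higher, 4 lower, 6 not called and a median log2 fold change of 0.20. That is 66.7% called, against 50.5% of all tested genes, of which 25.8% were higher and 24.7% lower. Without the filter on counts, 8 of the listed targets were called higher and 6 lower. Among those too low to test, CCL3, CCL4 and IL6 are listed at 0 in all 6 libraries. TNFAIP2, a TNF-induced gene of myeloid cells, had 57.5, 62.1 and 48.5 CPM with DMSO and 123, 119 and 146 CPM with WFA (log2 fold change 1.21, SE 0.11, adjusted p = 3.63e-07 by edgeR). The survival genes CFLAR, which encodes the caspase-8 inhibitor c-FLIP, and BCL2L1, which encodes BCL-XL, rose with log2 fold changes of 0.64 and 0.59 (SEs 0.09 and 0.10, adjusted p = 2.16e-05 and 0.000184 by edgeR).

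The other 5 higher targets are named here after their values were seen. BCL2A1, a survival gene of the BCL2 family, was rare, at 1.13, 2.13 and 1.75 CPM with DMSO and 4.98, 5.07 and 3.35 CPM with WFA, and had the largest log2 fold change of the tested targets that were higher (1.44, SE 0.27, adjusted p = 0.000498 by edgeR). CD83, a surface protein of activated antigen-presenting cells, rose by a log2 fold change of 0.73 (SE 0.18, adjusted p = 0.00372 by edgeR), and the stress gene GADD45B by 0.46 (SE 0.13, adjusted p = 0.00760 by edgeR). IRF1, an interferon regulatory factor, had a log2 fold change of 0.38 (SE 0.12, adjusted p = 0.0142 by edgeR) and was not called without DMSO replicate 2 (adjusted p = 0.0511) or WFA replicate 1 (adjusted p = 0.0567). PTGS2, the inducible cyclooxygenase, was called (0.49, SE 0.19, adjusted p = 0.0432 by edgeR) but not by DESeq2 (adjusted p = 0.138), nor with any 1 library left out other than WFA replicate 1 (adjusted p from 0.0620 to 0.132 by edgeR).

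The 4 lower targets were BIRC3, PLAU, IL1B and TNFAIP8, the last 2 named after their values were seen. BIRC3, the ubiquitin ligase cIAP2, was rare, at 2.67, 1.58 and 1.83 CPM with DMSO and 0.408, 0.403 and 0.744 CPM with WFA (log2 fold change -1.98, SE 0.37, adjusted p = 0.000434 by edgeR). PLAU, the plasminogen activator urokinase, fell from 48.3 ± 4.001 to 27.3 ± 5.09 CPM (SD, n = 3 each, log2 fold change -0.82, SE 0.13, adjusted p = 8.95e-05 by edgeR). IL1B, the cytokine interleukin-1β, fell from 3.54 ± 0.669 to 1.43 ± 0.316 CPM (SD, n = 3 each, log2 fold change -1.31, SE 0.27, adjusted p = 0.000861 by edgeR). TNFAIP8 had overlapping groups (log2 fold change -0.33, SE 0.13, adjusted p = 0.0436 by edgeR) and was not called without DMSO replicate 1, DMSO replicate 3, WFA replicate 1 or WFA replicate 3 (edgeR adjusted p from 0.0575 to 0.186).

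**Figure D4:**
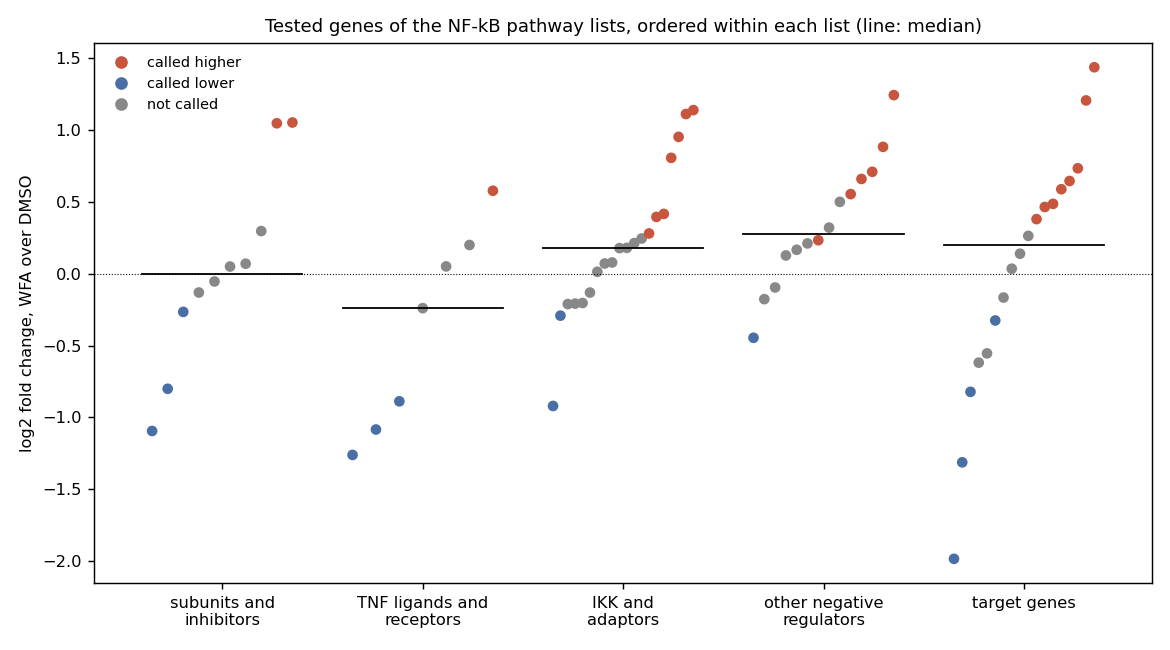
Log2 fold change (WFA over DMSO, edgeR) of each tested gene on 5 lists of the NF-kB pathway, ordered by value within a list and coloured by call, with a line at the list's median. Each list holds genes called in both directions, from 7 tested ligands and receptors to 20 kinases and adaptors, and the medians lie between -0.24 and 0.28.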

How the data were processed

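Total RNA of THP1 cells was sequenced from TruSeq RNA v2 libraries, and the deposited table gives, for each gene symbol and library, raw counts made by the authors. Columns not used here hold a rounded, size-scaled score per library, deposited by the authors, and the results of their own comparison (fold changes and p-values). The submitters' processing notes name bcl2fastq 2.19, Trimmomatic, Bowtie2, Picard, featureCounts, DESeq2 and hg38. The annotation and the treatment of multiply mapped reads are not given in the sources used here.

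From the counts, edgeR 4.0.16 (R 4.3.3) was used with TMM factors, filterByExpr at a minimum of 10 counts, and a quasi-likelihood test of WFA against DMSO over 12854 genes, with Benjamini-Hochberg adjustment and a threshold of 0.05. The SE is the absolute log2 fold change divided by the square root of the test's F. Alternatives were the replicate number as a block, DESeq2 1.42.0, other scalings, no filter, a robust fit and leaving out each library. The fit was also run on simulated counts that had no replicate effect and far fewer changed genes. That run does not test the calls made here. The members, lists and ratios were chosen with earlier results of these data known. Cultures are of 1 line, so p-values rest on the spread between them, part of it borrowed from other genes. The genes named are all members, and of each list up to 4 called genes with the smallest p and up to 2 called against its direction, with other genes where a count of 5 or fewer asked for them. Markers, SIRT2, CHUK and the remaining called targets were added after their values were seen.

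Replicate numbers pair the libraries: same-numbered descriptions carry the same digits, and deviations from the group means correlated by 0.217, 0.333 and 0.245 within numbers and by -0.256 to 0.00369 between them. No libraries of a group were duplicates (chi-square per gene of 5.92 or more). Total counts were 11006035 to 13872810 per library, and their part in the precision was not tested.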

Additional observations from a re-analysis of the deposited data

How the results depend on the processing

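The calls of NFKB1, NFKB2, NFKBIB and TNFAIP3 and their directions held under all 13 alternatives. Fitted with the replicate block, these genes had log2 fold changes of -0.80, 1.05, 1.05 and -1.10, and 7585 genes were called in all. No call of a member or of another named gene was lost or gained, CHUK aside, which was not examined singly in that fit. The list counts moved by at most 1.5 times, to 9 higher and 3 lower kinases and adaptors (from 7 and 2), 7 higher negative regulators (from 6) and 4 lower ligands and receptors (from 3). That fit has 2 residual degrees of freedom against 4, so its small p-values rest on spread borrowed across genes. The main fit borrows too, with 10.8 degrees of freedom from other genes beside the 4 residual ones. A permutation test of the CPM difference over all splits of 3 libraries against 3 leaves the pairing by replicate number aside and cannot give a p under 0.1. NFKB1, NFKB2, NFKBIA, NFKBIB and TNFAIP3 each had p = 0.1 by that permutation test. Any gene whose groups do not overlap reaches that value, and 58.1% of all tested genes had such groups. Values near 0 changed sign without a call, namely RELB (-0.033) and REL (-0.016) when scaled by library totals alone. With 1 library left out, RELB lay between -0.10 and 0.13, LYZ between -0.19 and 0.10 and NFKBIE between -0.12 and 0.020. Scaled by totals, 5 kinases and adaptors were lower rather than 2. Under that scaling the median log2 fold change of all tested genes was -0.063, against 0.02 in the main fit. The TMM factors that it leaves out were 1.01 to 1.05 for DMSO libraries and 0.964 to 0.977 for WFA libraries. With 1 library left out, 4 to 6 of them were higher, the fewest without DMSO replicate 1, and 1 to 2 lower, the fewest without DMSO replicate 2, and 0 to 1 of the other negative regulators were lower in edgeR's test, with 0 without DMSO replicate 1, DMSO replicate 2, WFA replicate 2 or WFA replicate 3 (0 or 1 at an unadjusted p under 0.05, and 1 by DESeq2 on all libraries). The cause was not tested. The SE was 0.18 for RELB and NFKBIZ, which had few reads, and 0.09 for NFKB1, and counting error was not separated from the spread between cultures.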

Other observations

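Of the 164 protein-coding genes counted between 29 and 33.5 Mb of chromosome 6, 110 were listed at 0 in all 6 libraries (67.1%) and 138 had at most 3 counts in any library (84.1%). On the remainder of chromosome 6 the shares were 17.5% and 27.5% of 822 genes. The stretch holds TNF, LTA, LTB, NFKBIL1 and IER3 of the NF-kB pathway lists, each with at most 1 count. CCL3 and CCL4 on chromosome 17 were also listed at 0 in all libraries. Whether the alignment or the counting set these values was not tested.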
